A study of Mus musculus with 12 samples.

Results

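The nuclear genes described here encode proteins of the mitochondrial respiratory chain, factors that assemble it, and small proteins of mitochondrial import and gene expression. They were chosen by name, as genes with these roles whose rows lie in 4 stretches of the genome where row levels follow annotated exons. Chromosome 4 holds 2 of these stretches, at 3.1–41.0 Mb and at 45.1–55.5 Mb. The others lie at 3.1–23.2 Mb of chromosome 6 and 8.9–36.7 Mb of chromosome 15. The list holds 10 of the 56923 rows of the table, and 9 of the 10 lie in the stretches, which hold 1090 rows in all. The exception is Fastkd3, on chromosome 13 from 68582234 to 68592338 in GRCm38, whose row is treated separately. The RNA came from wild-type (WT) mouse brain sections held for 5 hours in artificial cerebrospinal fluid (aCSF), the salt solution that sustains brain slices. In the treated sections the aCSF also contained L-fucose, a sugar that cells attach to glycoproteins. Each condition had 6 libraries, numbered 1 to 6, and the sample titles use WT1 to WT6 in both. Nothing used here says which libraries came from separate mice, or whether a shared number means a shared mouse. P-values therefore measure only the spread between libraries. Sections hold many cell types, and fewer cells of a type cannot be told apart from less RNA per cell.

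The respiratory chain passes electrons from NADH and succinate through complexes I to IV to oxygen and pumps protons that drive ATP synthase. Most of its subunits are encoded in the nucleus, made in the cytosol and imported, while a small set of core subunits is encoded by mitochondrial DNA. Neurons depend on it for the ATP that restores ion gradients after electrical activity.

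The row names were checked against position before any value was read as a gene's level. In a window of 80 neighbouring rows centred on each gene, levels were correlated with protein-coding exons with the rows moved upstream or downstream by as much as 600 kb, 500 bp at a time. For 8 of the 9 genes in the stretches the best match lay at no displacement, with correlations across rows between 0.617 for Tomm5 and 0.869 for Ndufaf4. For Cox6c it lay at -0.5 kb, 1 step from none (0.770 there and 0.733 at none). Tomm5 lies just inside the edge of its stretch. The window around Fastkd3 matched best at 149.5 kb, with a correlation of 0.508 against 0.249 at none, so the row labelled Fastkd3 may not have counted that gene. The stretches were themselves chosen by this match, so the correlations are a description of the rows and not a separate test.

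Promoters of the genes were compared because Ndufa4 and Ndufb6 varied together over the libraries, as did Sdhaf3 and Lyrm2 in part, as described below. RefSeq windows in GRCm38.p6, of 250 bases before and 50 after the annotated start, matched 8 of the 10 genes and not Cox6c or Chchd7. They are shown 5′ to 3′ for these 4 genes, with capitals for motif matches on either strand. The first motif is GCGC, any base and TGCGC (the site of nuclear respiratory factor 1, NRF1). The others are CCGGAAG (a form of the sites for ETS-family factors such as GABP) and GGGCGG (a GC box). The windows are chr6:11907401-11907700 on the minus strand for Ndufa4, chr4:40279372-40279671 on the minus strand for Ndufb6, chr6:6955768-6956067 on the plus strand for Sdhaf3 and chr4:32800009-32800308 on the plus strand for Lyrm2.
Ndufa4: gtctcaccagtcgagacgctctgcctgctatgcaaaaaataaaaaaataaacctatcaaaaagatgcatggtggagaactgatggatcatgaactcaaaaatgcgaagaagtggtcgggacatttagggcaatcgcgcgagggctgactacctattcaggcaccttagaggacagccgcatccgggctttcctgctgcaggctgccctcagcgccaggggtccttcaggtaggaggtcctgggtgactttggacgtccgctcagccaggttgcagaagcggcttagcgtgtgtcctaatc
Ndufb6: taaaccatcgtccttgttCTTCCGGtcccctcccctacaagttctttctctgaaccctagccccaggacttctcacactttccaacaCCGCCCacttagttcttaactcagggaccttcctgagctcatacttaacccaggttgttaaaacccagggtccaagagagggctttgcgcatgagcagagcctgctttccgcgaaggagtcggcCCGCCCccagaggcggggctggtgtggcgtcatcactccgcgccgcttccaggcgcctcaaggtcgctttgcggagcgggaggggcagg
Sdhaf3: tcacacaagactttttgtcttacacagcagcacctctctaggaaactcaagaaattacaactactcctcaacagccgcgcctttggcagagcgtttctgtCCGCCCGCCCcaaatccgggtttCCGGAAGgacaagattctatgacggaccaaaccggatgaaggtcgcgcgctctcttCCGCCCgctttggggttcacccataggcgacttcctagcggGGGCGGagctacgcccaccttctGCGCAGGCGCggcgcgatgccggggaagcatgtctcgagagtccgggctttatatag
Lyrm2: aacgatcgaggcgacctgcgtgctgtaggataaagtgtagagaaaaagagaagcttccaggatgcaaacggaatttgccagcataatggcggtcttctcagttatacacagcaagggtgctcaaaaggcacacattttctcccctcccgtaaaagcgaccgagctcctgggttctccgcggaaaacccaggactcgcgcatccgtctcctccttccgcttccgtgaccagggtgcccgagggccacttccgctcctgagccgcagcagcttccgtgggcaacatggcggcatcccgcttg

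Ndufa4 and Lyrm2 held none of the 3 motifs, as spelled here, in these windows. Shorter or variant forms of the sites were not searched. Sdhaf3 held an NRF1 match at -7 from the start and an ETS match at -127, and 4 GC boxes, those at -150 and -146 overlapping. Ndufb6 held an ETS match at -232 and GC boxes at -163 and -39. Of the promoters not shown, Ndufaf4 held an NRF1 match at -113. Fastkd3, whose promoter does not depend on the displaced row, held 3 NRF1 matches. The NRF1 motif was in 3 of 8 matched promoters and in 4.6% of all 32851 windows. The ETS motif was in 2 and in 8.86%, and the GC box in 5 and in 35.7%. The promoters with NRF1 matches, Ndufaf4, Sdhaf3 and Fastkd3, were 66%, 57.7% and 70.7% G and C. The median over all windows was 52.7%, and the part of this difference in the matches was not tested. A match here is a run of letters, and neither a match nor its absence was tied to a gene's behaviour by a test.

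All 10 rows passed the filter on low values, which kept 10787 rows. Levels between genes were compared as normalized reads per kb of the principal annotated transcript, averaged over all 12 libraries. Ndufa4, long counted as a subunit of complex I and now assigned to complex IV (cytochrome c oxidase), was highest at 14661 ± 2167 per kb (SD, n = 12). Next were Cox6c, another subunit of complex IV, at 8559 ± 1482, and Ndufb6, an accessory subunit in the membrane arm of complex I, at 2133 ± 467. Tomm5, a small subunit of the translocase of the outer mitochondrial membrane through which nearly all imported proteins pass, had 1703 ± 251. With these lengths each was above the next in 12 of 12 libraries, a count that leaves out any doubt about length. Cox6c spans 3567 bp over all its annotated exons against 738 bp in its principal transcript. Ndufb6 spans 659 bp either way, so the order of these 2 genes depends on the length used.

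Lower in this order came Chchd7, a small protein of the intermembrane space, at 759 ± 133 per kb and Lyrm2, a matrix protein of the LYR-motif family with a role in assembling complex I, at 721 ± 136. With these lengths the neighbours did not differ beyond their spread, since Chchd7 was above Lyrm2 in 6 of 12 libraries. Over all annotated exons Chchd7 spans 4060 bp and Lyrm2 1140 bp, so their places also depend on the length used. Mrpl50, a protein of the large subunit of the mitochondrial ribosome, had 541 ± 46.3 and was below Lyrm2 in 11. Ndufaf4, an assembly factor of complex I, had 290 ± 38.4, and Sdhaf3, which helps mature the iron-sulfur subunit of complex II, was lowest at 80.2 ± 11.5. Reads were divided by length, which raises short transcripts in this order by construction. In undivided normalized reads Lyrm2 was the lowest of these genes, with a mean of 335 where Sdhaf3 had 347. Mrpl50, at 1144, was then above Tomm5, at 1088. Ndufa4, Cox6c, Ndufb6, Tomm5, Chchd7 and Lyrm2 have principal transcripts of 465 to 889 bp, and Mrpl50, Ndufaf4 and Sdhaf3 of 2114 to 4323 bp.

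Whether these transcripts differ after 5 hours with the sugar was tested first gene by gene, and none passed. Lyrm2 showed the greatest separation of the groups among the 9 genes, and the subunits of complexes I and IV differed by less than the spread between libraries. With limma, 0 of the 9 genes and 0 of all 10787 rows had an adjusted p under 0.05 (0% of rows called). At an unadjusted p under 0.05 there was 1 of the 9, Lyrm2, beside 643 of all rows, or 5.96%. Rows of that kind that were higher in L-fucose, as Lyrm2 was, made up 3.17%. Lyrm2 was again the only one of the 9 at an unadjusted p under 0.05 in edgeR (5.61% of rows), limma-voom (5.87%) and DESeq2 (3.62%). After adjustment these tools called 0 of the 9, and of all rows edgeR and limma-voom called 0 and DESeq2 called 1, or 0.00344%. The shares have unlike bases, since DESeq2 was run without a prior filter, on 29080 rows, and edgeR and limma-voom on 10771. In 0 of the 9 genes were the groups free of overlap, as they were in 0.287% of rows. Fold changes are differences of mean log2(value + 1), with a positive sign where L-fucose was higher, and have 95% intervals.

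Of the 9 genes, 7 had positive and 2 negative fold changes, between -0.07 and 0.41 with a median of 0.10. Over all tested rows 52% were positive and the median was 0.01, and over the other 343 tested rows of the same stretches 133 were positive and the median was -0.06. For all 9 genes, intervals stayed within 1 log2 unit of 0, and for 6 within 0.5. Over all 10787 tested rows these counts were 6936 and 3483. Over the other 343 rows of the stretches they were 273 and 185.

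**Figure D1:**
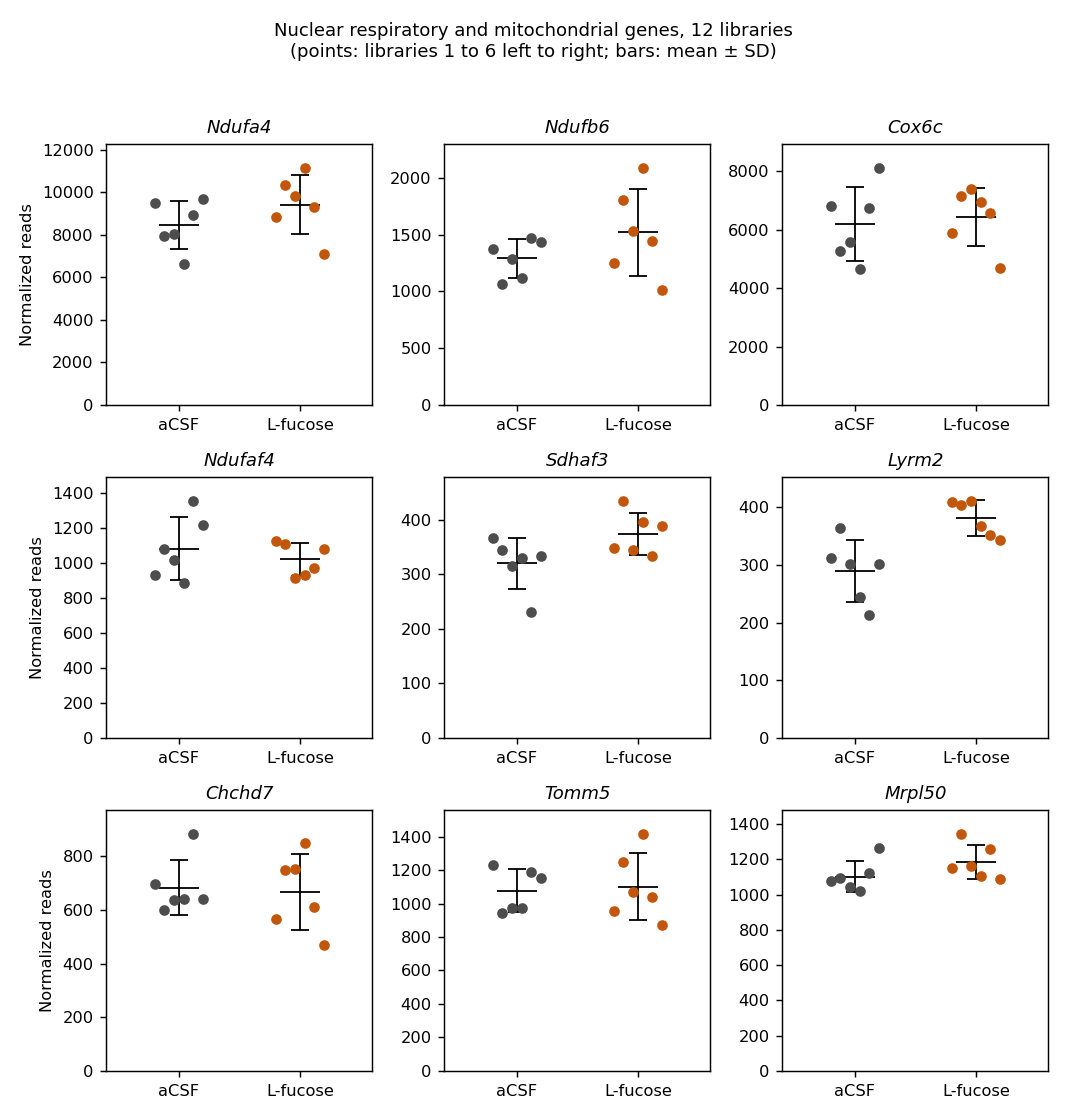
Normalized reads (vertical axis, from 0) of the 9 genes in each aCSF and L-fucose library, with points for libraries 1 to 6 from left to right and bars for the mean and SD of 6. The groups overlap in every panel; in Lyrm2, 5 of the 6 aCSF libraries lie below the lowest L-fucose library.

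Ndufa4 (ENSMUSG00000029632, chromosome 6, 11900292 to 11907497, minus strand, GRCm38) is an abundant transcript with 6594 to 17014 reads per library. In aCSF its lowest, median and highest values were 6642, 8499 and 9683 normalized reads, and in L-fucose 7083, 9583 and 11148. Its 3 highest libraries were all in L-fucose, but L-fucose 6 was lower than every aCSF library except aCSF 4. Its fold change was 0.15, standard error 0.11 (interval -0.08 to 0.38; limma adjusted p 0.872). It was 0.09 without aCSF 4, 0.10 without L-fucose 4 and 0.23 without L-fucose 6.

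Ndufb6 (ENSMUSG00000071014, chromosome 4, 40270591 to 40279421, minus strand) had 1063, 1328 and 1466 in aCSF and 1009, 1488 and 2087 in L-fucose, as lowest, median and highest. The L-fucose libraries held both the highest value, in L-fucose 4, and the lowest, in L-fucose 6, so the group enclosed all of aCSF. Its fold change was 0.21 (-0.09 to 0.51; limma adjusted p 0.872), and it was 0.11 without L-fucose 4 and 0.32 without L-fucose 6. Without L-fucose 6, 3 of the 9 genes (Ndufa4, Ndufb6 and Lyrm2) had an unadjusted limma p under 0.05, beside 7.23% of rows, and 0 passed adjustment. Ndufb6 shares 39% of its exonic bases with Smim27 on the other strand, and without a stated strand setting reads of the pair cannot be told apart.

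Cox6c (ENSMUSG00000014313, chromosome 15, 35925886 to 35938246, minus strand) had 4666, 6164 and 8112 in aCSF and 4678, 6754 and 7376 in L-fucose. The groups overlapped almost fully, with both extremes in aCSF (aCSF 4 and aCSF 6). Its fold change of 0.06 (-0.21 to 0.33; limma adjusted p 0.959) changed sign without aCSF 4, at -0.015. Cox6c shares 7.01% of its exonic bases with Vps13b on the other strand.

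Among the assembly genes, Lyrm2 had 213, 302 and 364 normalized reads in aCSF and 343, 385 and 411 in L-fucose, from 190 to 665 reads per library. All 6 L-fucose libraries were above the aCSF median, which held for 6.22% of all tested rows. The groups touched through 1 library, aCSF 2, which at 363.9 exceeded L-fucose 5 and 6 at 352.3 and 342.9. Lyrm2 had a fold change of 0.41, standard error 0.14 (0.12 to 0.70). Its unadjusted limma p of 0.00758 ranked 80th of 10787 rows, and the adjusted p was 0.827. Lyrm2 (ENSMUSG00000045854) lies on chromosome 4 from 32800253 to 32801559 in GRCm38, and its exons overlap those of no other annotated gene.

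Leaving out each library in turn moved the Lyrm2 fold change between 0.33 (without aCSF 5, its lowest library) and 0.48 (without aCSF 2). Without aCSF 5 and 6, which stand apart from the other libraries, it was 0.33 (limma adjusted p 0.393). The sign was positive under all 25 alternatives and the adjusted threshold was not passed under any.

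Sdhaf3 (ENSMUSG00000042505, chromosome 6, 6956004 to 7042979, plus strand) had 230, 332 and 366 in aCSF and 333, 368 and 434 in L-fucose. All 6 L-fucose libraries were above the aCSF median, as in Lyrm2, though only 3 exceeded the highest aCSF library. Its fold change was 0.23 (-0.05 to 0.51; limma adjusted p 0.848), and without aCSF 5, its lowest library, it was 0.14. Ndufaf4 (ENSMUSG00000028261, chromosome 4, 24898083 to 24905001, plus strand) had 886, 1052 and 1356 in aCSF and 917, 1026 and 1125 in L-fucose. Here the 2 highest libraries were aCSF 5 and 6, and the fold change of -0.07 (-0.31 to 0.16; limma adjusted p 0.945) became 0.06 without them. The 3 assembly genes thus did not share a sign, and the intervals of Sdhaf3 and Ndufaf4 included 0.

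Chchd7 (ENSMUSG00000042198, chromosome 4, 3938888 to 3951046, plus strand) had 599, 642 and 884 in aCSF and 468, 680 and 850 in L-fucose, a fold change of -0.05 (-0.35 to 0.24; limma adjusted p 0.969). Tomm5 (ENSMUSG00000078713, chromosome 4, 45105208 to 45108114, minus strand) had 944, 1065 and 1231 in aCSF and 872, 1053 and 1416 in L-fucose, a fold change of 0.02 (-0.23 to 0.27; limma adjusted p 0.985). In both genes 3 of 6 L-fucose libraries were above the aCSF median, and the lowest of all 12 libraries was L-fucose 6. The sign of Chchd7 turned in 3 of 25 alternatives and that of Tomm5 in 6, so neither has a direction.

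Mrpl50 varied least of the 9, with a within-group coefficient of variation of 8.07% against 12.5% to 21.1% in the others. Mrpl50 (ENSMUSG00000044018, chromosome 4, 49512596 to 49521093, minus strand) had 1018, 1086 and 1263 in aCSF and 1089, 1158 and 1344 in L-fucose. All 6 L-fucose libraries were above the aCSF median, but aCSF 6 was above all L-fucose libraries except L-fucose 2. Its fold change was 0.10 (-0.09 to 0.30; limma adjusted p 0.893), or 0.07 without L-fucose 2.

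Fastkd3 encodes a matrix protein that binds mitochondrial RNAs. The row labelled Fastkd3 had 62.8, 135 and 216 in aCSF and 37.4, 112 and 145 in L-fucose, from 37 to 234 reads. Its spread within groups was 47.9% of its mean, more than in any of the 9 genes. The fold change was -0.46 with an interval from -1.21 to 0.30 (limma adjusted p 0.888), which includes both a change of 1 log2 unit downward and 0. It was -0.21 without L-fucose 3, -0.29 without aCSF 2 and -0.91 without aCSF 5 and 6.

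**Figure D2:**
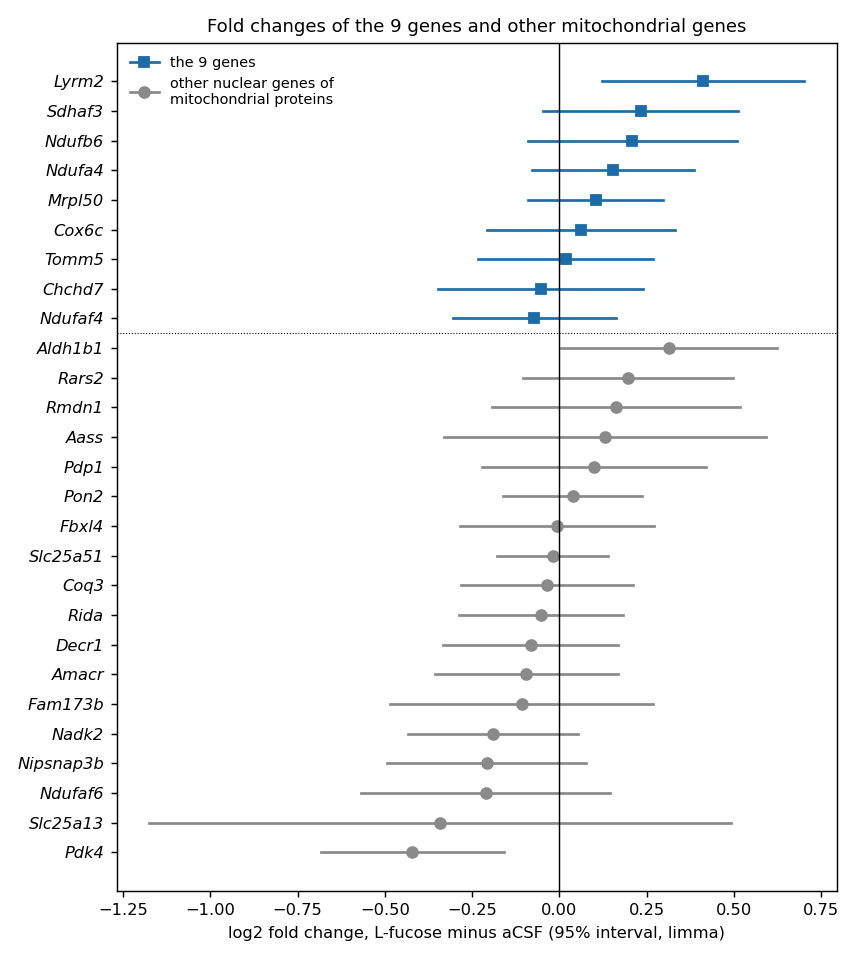
log2 fold change, L-fucose minus aCSF (horizontal axis), with 95% limma intervals for the 9 genes (blue squares) and 18 other nuclear genes of mitochondrial proteins in the same stretches (grey circles). Among the 9, the interval of Lyrm2 alone excludes 0; among the 18, those of Pdk4 and Aldh1b1 do.

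Other nuclear genes of mitochondrial proteins were taken from a list of 20 rows in the stretches, of which 18 were tested. The untested rows, Agxt2 and Nipsnap3a, had means of 0.455 and 0.0757 normalized reads. With limma 0 of the 18 passed adjustment and 2 had an unadjusted p under 0.05, 1 in each direction (background 5.96%). Pdk4, the kinase that inhibits pyruvate dehydrogenase, went from 1229 ± 193 normalized reads in aCSF to 917 ± 151 with the sugar (SD, n = 6), at -0.42 (-0.68 to -0.16). Aldh1b1, a mitochondrial aldehyde dehydrogenase, went from 226 ± 35.2 to 281 ± 45.2, at 0.31 (0.004 to 0.62). Of the 18, 6 had positive and 12 negative fold changes with a median of -0.04. Without aCSF 5 and 6, 11 were positive and 7 negative with a median of 0.02, as Ndufaf6, Fbxl4, Amacr, Fam173b and Rida turned positive.

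Genes nearest in role to the 9 had fold changes of both signs. Ndufaf6, a further assembly factor of complex I, was at -0.21 (-0.57 to 0.15), or 0.02 without aCSF 5 and 6, and Coq3, a methyltransferase of ubiquinone synthesis, at -0.04 (-0.28 to 0.21). Fam173b, a methyltransferase that modifies ATP synthase, was at -0.11, or 0.06 without aCSF 5 and 6, and Rars2, the mitochondrial arginyl-tRNA synthetase, at 0.20 (-0.10 to 0.50). Carriers were at -0.02 for Slc25a51, which brings NAD+ into mitochondria, and -0.34 for Slc25a13, the aspartate-glutamate carrier (-1.18 to 0.49). Pdp1, the phosphatase opposing Pdk4, was at 0.10, or 0.37 without aCSF 5 and 6.

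The remaining genes of that list had intervals that included 0. Fbxl4, a regulator of mitophagy, was at -0.0060, Rmdn1 at 0.16, Aass, an enzyme of lysine breakdown, at 0.13 and Pon2 at 0.04. Negative values were those of Decr1, an enzyme of unsaturated fatty acid oxidation, at -0.08, Nipsnap3b at -0.21, Nadk2, the mitochondrial NAD kinase, at -0.19, Amacr at -0.09 and Rida at -0.05. Without aCSF 5 and 6, Fbxl4, Amacr and Rida were at 0.03, 0.0074 and 0.07.

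The mitochondrial genome encodes the core subunits that complete the complexes of Ndufa4, Ndufb6 and Cox6c. All 13 of its messenger RNAs were tested and 0 passed adjustment in limma, 1 having an unadjusted p under 0.05 (background 5.96%). That row, mt-Co2, was picked after its values were seen and had a fold change of 0.63 (0.14 to 1.12). The median fold change of the 13 was -0.01, against 0.10 for the 9 nuclear genes, but without aCSF 5 and 6 this order turned, at 0.34 against 0.16. All 13 were then positive, where 5 had been. Since aCSF 5 and 6 had the highest mitochondrial shares of counted reads, leaving them out lowers the aCSF level of such rows. The turn is thus tied to the choice of libraries. In the fit of all libraries the 13 ran from -0.15 for mt-Co3 (-0.62 to 0.31) to 0.65 for mt-Atp6 (-0.01 to 1.32). Without aCSF 5 and 6 these were 0.16 and 1.03. Mean levels of the 13 rows ran from 134.7 normalized reads for mt-Atp8 to 1.1684e+06 for mt-Co1. The rows named here were far below mt-Co1, at 6981.3 for mt-Co2, 3335.5 for mt-Atp6 and 4079.9 for mt-Co3. Why they were so low was not tested, and they may not measure these transcripts in full.

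Other nuclear subunits of complexes I to V are carried by 73 rows outside the stretches, whose names may not say what was counted. Of these, 50 had a mean under 10 normalized reads, 35 under 1, and 19 were at 0 in every library, although these are genes that brain cells transcribe. The 23 rows tested had fold changes between -1.13 and 1.27, with 0 past adjustment in limma and 3 at an unadjusted p under 0.05 (background 5.96%). These 3, picked after their values were seen, are labelled Ndufa9, Ndufa3 and Ndufv1, at 0.37, 0.35 and -1.13. Ndufa4, Ndufb6 and Cox6c are therefore the only subunit genes read as such here.

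Across libraries, a set of the genes varied together in a way that did not follow the treatment. Levels of Ndufa4, Ndufb6, Cox6c, Tomm5 and Chchd7 went together over many of the libraries, a grouping made after the values were seen. Relative to the mean of the 12 libraries, L-fucose 4 was at 0.33 for Ndufa4, 0.60 for Ndufb6, 0.39 for Tomm5 and 0.35 for Chchd7 on the log2 scale, but 0.16 for Cox6c. L-fucose 6 was at -0.32, -0.45, -0.30 and -0.51 for the same genes and at -0.41 for Cox6c. aCSF 4 was at -0.41 for Ndufa4, -0.30 for Ndufb6 and -0.42 for Cox6c, but at -0.15 for Tomm5 and -0.05 for Chchd7. Chchd7 also parted from the others in aCSF 5, at 0.41 against 0.015 to 0.14, and in aCSF 6, at -0.05 where Cox6c was at 0.38. L-fucose 4 and L-fucose 6, at opposite ends for these genes, had the same treatment. Lyrm2, outside this set, was above its mean over the 12 libraries in every L-fucose library. It was below that mean in every aCSF library except aCSF 2.

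**Figure D3:**
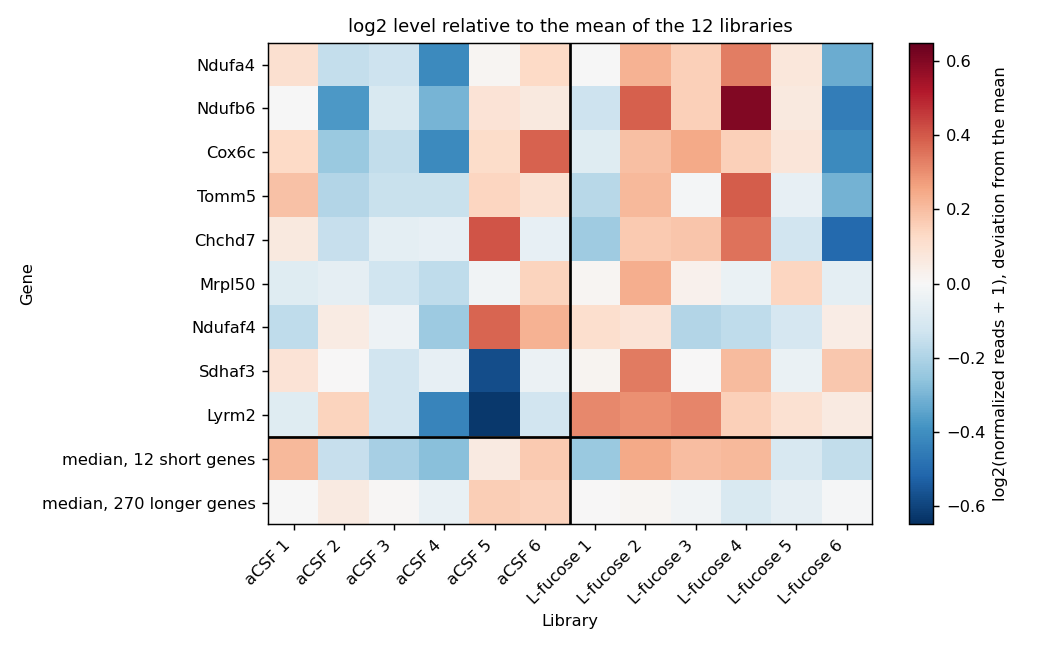
Colour shows each gene's log2 level in each library (columns, aCSF left of the line and L-fucose right) relative to its mean over the 12, with the medians of 12 short and 270 longer other coding genes in the lowest rows. The upper 5 genes are red in L-fucose 4 and blue in L-fucose 6 together, while Lyrm2 is blue in aCSF 4 and 5 and red in every L-fucose library.

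Correlations of log2 levels over the 12 libraries were computed for all 36 pairs of the 9 genes, with permutation p-values adjusted over the pairs. Pearson's r passed in 9 pairs, and Spearman's rho in 8 of these 9 and in Cox6c with Mrpl50. No share of such pairs among other rows is given here, so the count cannot be read as particular to these genes. Of the 9, 8 were among the 10 pairs of Ndufa4, Ndufb6, Cox6c, Tomm5 and Chchd7. Ndufa4 and Ndufb6, which lie on different chromosomes, had r = 0.906 and Spearman's rho = 0.909 (permutation p = 4e-05 and 0.00015, adjusted 0.00072 and 0.0027). Without the 2 libraries farthest from the median of Ndufa4, aCSF 4 and L-fucose 6, r was 0.925. Within groups r was 0.806 in aCSF and 0.975 in L-fucose.

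Ndufa4 and Cox6c, both of complex IV, had r = 0.904 and rho = 0.923 (permutation p = 7e-05 and 4e-05, adjusted 0.00084 and 0.00144), and r = 0.781 without these libraries. Ndufb6 and Tomm5, 2 genes of unrelated function on chromosome 4, had r = 0.900 and rho = 0.888 (permutation p = 2e-05 and 0.00026, adjusted 0.00072 and 0.00312). Without the 2 farthest libraries their r was 0.782. Over the 10 pairs of the 5 genes, r ran from 0.626 to 0.906, from 0.745 to 0.982 within L-fucose and from 0.357 to 0.949 within aCSF. The lowest were those of Chchd7 with Cox6c and with Ndufa4, which did not pass adjustment (permutation p = 0.0289 and 0.0239, adjusted 0.0868 and 0.0783).

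Sdhaf3 and Lyrm2, assembly factors of complexes II and I, had r = 0.748 (permutation p = 0.00542, adjusted 0.0217) and rho = 0.657 (permutation p = 0.0234, adjusted 0.0647). Without aCSF 5 and L-fucose 2, r was 0.345, and within L-fucose it was 0.00408 against 0.783 in aCSF. The relation therefore rests on those libraries. aCSF 5 was the lowest of the 12 for both genes. Lyrm2 had r = 0.41 with Ndufa4, 0.22 with Ndufb6, 0.18 with Cox6c and -0.03 with Tomm5, none past the threshold.

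**Figure D4:**
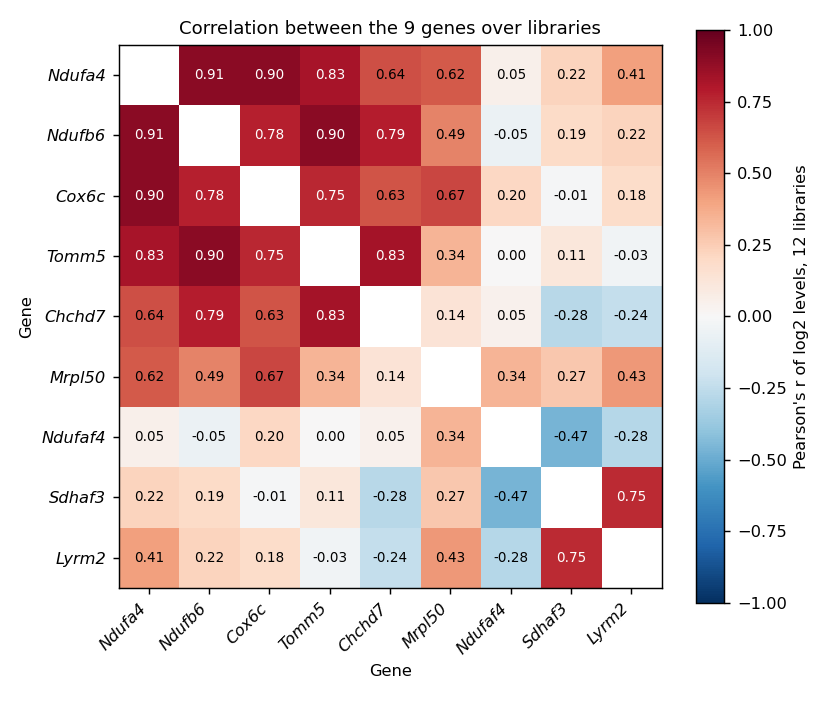
Pearson's r of log2 levels over the 12 libraries for each pair of the 9 genes, in colour and printed in the squares. The block of Ndufa4, Ndufb6, Cox6c, Tomm5 and Chchd7 at the upper left holds values from 0.63 to 0.91, and Ndufaf4, Sdhaf3 and Lyrm2 lie outside it.

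The median level of other short genes went with this shared pattern. Over the libraries, the median log2 level of 12 other coding genes of the stretches with principal transcripts under 1000 bp was correlated with each of the 9 genes, a measure chosen after the values were seen. Its r was 0.829 with Ndufa4, 0.772 with Ndufb6, 0.843 with Cox6c, 0.845 with Tomm5 and 0.661 with Chchd7, with rho from 0.699 to 0.902. Their adjusted permutation p over the 9 relations was 0.00279, 0.00562, 0.00279, 0.00279 and 0.0329 for r, and at most 0.0246 for rho. Lyrm2, whose transcript is the shortest of the 9, had r = 0.188 and rho = 0.336 (adjusted permutation p 0.628 and 0.323). Without the libraries farthest from the median of the short genes, aCSF 4 and L-fucose 2, r was 0.766, 0.696, 0.799, 0.831 and 0.687 for the 5 genes in the same order and -0.14 for Lyrm2. Without aCSF 5 and 6, it was 0.826, 0.782, 0.84, 0.846 and 0.751 for the 5 genes and 0.444 for Lyrm2. Within groups, r for Lyrm2 was 0.0248 in aCSF and 0.339 in L-fucose. Correlations with the median of longer genes are not given here, so a tie to length was not tested.

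Of the 12 short genes 10 had positive fold changes, with a median of 0.09, against 85 of 270 longer genes, with a median of -0.08. The positive values of Ndufa4, Ndufb6 and Cox6c stand beside that difference, whose part in them was not tested. Tomm5 and Chchd7, which also varied with the short genes, had fold changes of 0.02 and -0.05. Lyrm2, whose correlation with them did not pass adjustment, had 0.41.

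Library totals ran from 9191687 to 18563078 recovered reads, with a median of 11168285. aCSF 5 and 6 had the fewest rows above 0, 14340 and 14856 against at least 16514 elsewhere, and the highest mitochondrial shares of counted reads, 41.9% and 44.8%. L-fucose 6 was next at 40.5%, and aCSF 4 lowest at 27.6%. Without aCSF 5 and 6, all 9 genes had positive fold changes with a median of 0.16, beside 48.8% of 10425 rows. The other mitochondrial lists moved upward as well, to 13 of 13 mitochondrial messenger RNAs and 11 of 18 other nuclear genes. For the messenger RNAs this move is tied to the choice of libraries, given the mitochondrial shares of aCSF 5 and 6. In this setting 1 of the 9 had an unadjusted p under 0.05 (11.3% of rows did) and 0 passed adjustment. That one was Lyrm2, and Ndufa4, Ndufb6 and Cox6c were then at 0.23, 0.30 and 0.20. Markers of brain cell types were looked up in the stretches, and 15 of 15 were tested and 0 at 0. They include Basp1, a neuronal growth cone protein, at 23323 normalized reads, and Gabbr2, a GABA receptor subunit, at 10734. Such abundant genes weigh most in a sum over the markers, so the sum cannot show whether a less abundant cell type changed. The 15 summed to 47967 to 58385 in aCSF and 52062 to 57822 in L-fucose, with 0 past adjustment in limma, 1 higher and 4 lower at an unadjusted p under 0.05 (background 5.96%). The higher one was Penk, an opioid peptide precursor of striatal neurons, at 0.61, and the lower ones were Ptprz1, a glial phosphatase, at -0.30 and 3 markers of motile cilia. Those, Spef2 at -1.30, Cfap206 at -0.76 and Capsl at -0.80, mark ependymal cells and summed to 259 to 411 in aCSF and 133 to 235 in L-fucose. These genes were picked after their values were seen, and their part in the Lyrm2 difference was not tested.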

How the data were processed

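The table as deposited by the authors holds a normalized signal for 56923 Ensembl identifiers in 12 libraries: each library's gene reads were divided by a single size factor. The values themselves show this, since 100% in every library were whole multiples of 1 read within 0.01 reads. The submitters' processing notes name build mm10, featureCounts 2.0.3, HISAT2 2.2.1, Trimmomatic 0.39 and DESeq2 2.11.40.8. For the annotation release and strand setting, nothing is given in the sources used here. Symbols came from GENCODE M21 (GRCm38, the assembly of mm10) for 52073 rows. Rows with at least 10 in at least 6 libraries were fitted with limma 3.58.1 on log2(value + 1), treatment as sole term and an intensity trend. P-values were two-sided and adjusted by Benjamini-Hochberg over all tested rows (threshold 0.05). edgeR 4.0.16 and DESeq2 1.42.0 ran on recovered reads as alternatives. The fits were tested on simulated data with planted changes larger than those fitted for the 10 genes. That test does not cover changes as small as theirs. Correlations used 100000 permutations, two-sided. R 4.3.3, Python 3.11.15, numpy 2.4.6, pandas 2.3.3 and scipy 1.17.1 were used. All 10 genes are described, with every tested gene of the list of other mitochondrial proteins and the extremes of the mitochondrial messenger RNAs. These genes, lists and tests were chosen with earlier results of these data known. Replicate numbers were not used to pair libraries: 1 of 6 same-numbered pairs had correlated deviations over 0.1. This check cannot exclude that same-numbered libraries came from the same mouse.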

Additional observations from a re-analysis of the deposited data

Results flagged for a closer look

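A gap test within treatments was run on 62 sets of 6 libraries (the 10 genes, the 18 other genes of mitochondrial proteins and 3 measures of the libraries). In 3 sets the most extreme library stood apart, and about 5% of sets would do so by chance. For Sdhaf3 this was aCSF 5, with 229.97 normalized reads where the remaining aCSF libraries had 314.8 to 365.52. For Chchd7 it was aCSF 5 again, with 884 where the remaining ones had 599.48 to 696.66. For Aldh1b1 it was L-fucose 4, with 367.66 where the remaining L-fucose libraries had 239.29 to 281.33.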

How the results depend on the processing

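For Ndufa4, Ndufb6, Sdhaf3, Lyrm2 and Mrpl50, the sign of the fold change and the side of the adjusted threshold were unchanged under all 25 alternatives. The sign turned for Cox6c without aCSF 4 (-0.01524), for Ndufaf4 without aCSF 5 and 6 (0.06033) and for Chchd7 without aCSF 5 (0.02288), without L-fucose 6 (0.04242) and without aCSF 5 and 6 (0.02265). It turned for Tomm5 without aCSF 2, 3 or 4 and without L-fucose 2 or 4 (from -0.05915 to -0.009310, with -0.01861, -0.009885 and -0.02250 between) and when reads were scaled to rows that are not mitochondrial (-0.008114). With 1 library left out, Chchd7 ran from -0.1294 to 0.04242 and Tomm5 from -0.05915 to 0.08054. The causes were not tested. The row labelled Fastkd3 ran from -0.6438 (without aCSF 5) to -0.2144 (without L-fucose 3) with 1 library left out, and was -0.9135 without aCSF 5 and 6. The median of the 9 genes ran from 0.06674 to 0.1505 with 1 library left out, and was 0.161 without aCSF 5 and 6. DESeq2 called 1 row lower, Gabrr2, a GABA receptor subunit, and 0 higher; the other alternatives called 0, with 426 to 1232 rows at an unadjusted p under 0.05 over all settings. With a replicate block, limma gave Lyrm2 0.41 and an adjusted p of 0.901, and edgeR 0.41 and 0.992; no call changed. Depth limits the row labelled Fastkd3 most, at 37 to 234 reads.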
